A study of Mus musculus with 52 samples.

Results

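The genes that distinguish brain endothelial cells (ECs) from the cells around them were read from 4 RNA-seq libraries of adult male mouse cerebellum, out of 52 libraries in the series. All 4 came from phenotypically wild-type (WT) mice of the genotype Tie2-GFP, in which a Tie2 (also called Tek) transgene marks ECs with green fluorescent protein (GFP). Dissociated cells were sorted into GFP-positive cells (ECs, 2 libraries) and GFP-negative cells (the parenchyma, 2 libraries). The rule that picks these libraries reads the labels and no measured value. Values from other groups of adult male mice enter only where a comparison needs them. These were Tie2-GFP mice (anterior and posterior pituitary, sorted in the same way), Tie2-GFP; Pdgfb-CreER; BcatEx3fl mice (cerebellum, sorted, with beta-catenin stabilized in ECs by loss of the exon that marks it for degradation), and RiboTag; Pdgfb-CreER mice (cerebral cortex, ribosome-bound RNA and input). In the RiboTag and stabilized mice the Cre recombinase was driven by Pdgfb and induced by a tamoxifen metabolite. The labels do not say whether the GFP-positive gate held other cells in which the Tie2 promoter is active, and they do not give the number of mice behind a cerebellum library.

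ECs line every blood vessel. In the brain they form the blood-brain barrier: tight junctions seal the space between neighbouring cells, carriers in the membrane bring sugars, amino acids, lipids, hormones and iron to the neural tissue, efflux pumps return drugs to the blood, and vesicular transport is kept low. Wnt ligands made by neurons and glia act on EC receptors through beta-catenin to maintain this program, and the surrounding cells also supply VEGF. The cerebellar parenchyma holds granule neurons, Purkinje cells and interneurons, astrocytes and Bergmann glia, oligodendrocytes and microglia.

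The 4 libraries held between 28116011 and 35930249 estimated reads, within the range of all 24 sorted libraries (12157485 to 37529274). Over 21343 genes, log2 counts scaled to library size correlated at r = 0.911 between the EC libraries and at r = 0.897 between the GFP-negative libraries, a description across genes, which are not independent replicates. Replicates were separate libraries, which the study calls biological replicates, but nothing in the labels says which were separate mice. The p-values therefore measure only the spread between libraries. In bulk RNA a lower level may mean fewer cells of a type or less RNA per cell, and these cannot be told apart.

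The sort separated the fractions by their defining markers. The summed level of 26 EC identity genes was 215 and 118 TPM (a level scaled for transcript length and library total) in the GFP-negative libraries, and 12845 and 11731 TPM in the EC libraries. Markers of the parenchymal classes moved the other way. The 13 astrocyte and Bergmann glia markers summed to 10325 and 3217 TPM in GFP-negative cells and to 619 and 479 TPM in ECs, most of the latter from Glul, a glutamine-synthesizing enzyme (472 and 364 TPM). The 12 oligodendrocyte markers summed to 1527 and 3889.7 TPM against 65.1 and 47.9 TPM. The 12 microglia markers summed to 166 and 219 TPM against 18.6 and 12.2 TPM, with Tmem119, C1qb, C1qc and Aif1 at 0 in both EC libraries. Transcripts of parenchymal marker genes were thus present in the EC libraries at a low level.

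Some marker sums were far apart between replicates of 1 fraction. Hemoglobin and related erythrocyte transcripts summed to 20722 and 237 TPM in the GFP-negative replicates and to 65218 and 7177 TPM in the EC replicates. Immediate early and heat shock genes, which respond quickly to stress, summed to 1864 TPM in EC replicate 1 and 403 TPM in EC replicate 2. Ttr, the transthyretin of choroid plexus epithelium, stood at 0.0397 and 3514 TPM in the GFP-negative replicates. GFP-negative replicate 1 was the richer in astrocyte markers and replicate 2 in oligodendrocyte, Purkinje and choroid plexus markers. Their part in the results below was not tested.

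**Figure D1:**
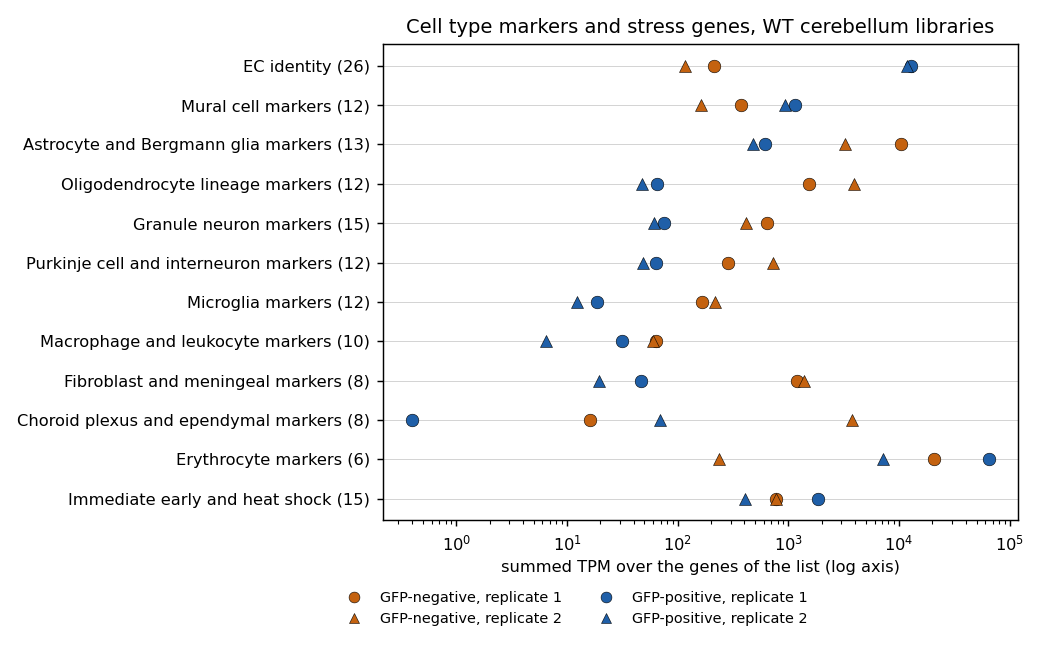
Summed level in TPM (log axis) of the genes of each marker list in each of the 4 libraries; the number of genes is in parentheses, colors mark the fractions and symbols the replicates. EC identity sums reach 12845 and 11731 TPM in ECs, neuronal, glial and fibroblast sums are higher in both GFP-negative libraries, and erythrocyte and choroid plexus sums split by replicate.

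Of 21343 genes tested, 952 were higher and 1470 were lower in ECs than in GFP-negative cells (edgeR quasi-likelihood test, adjusted p under 0.05 and at least 2-fold), which is 4.46% and 6.89% of the genes. With DESeq2 2562 were lower, and with an offset for transcript length in each library 630 were higher and 883 lower. Requiring at least 10 TPM in both replicates of the higher fraction left 795 EC-enriched genes (3.72%; 777 protein coding) and 757 parenchyma-enriched genes (3.55%; 745 protein coding). The median log2 fold change over all genes was -0.12. List counts below can be set against the shares of 4.46% and 6.89%. Here and below, each fit without 1 library leaves 1 library in that group, whose spread is taken from the other groups. Without 1 library, the higher count ranged from 622 (without GFP-negative replicate 1) to 875 and the lower count from 705 (without EC replicate 1) to 1275, with 974 without EC replicate 2. The EC-enriched list ranged from 550 to 692 genes and kept 67.0% to 78.9% of its members, and the parenchyma-enriched list from 451 (without EC replicate 1) to 776.

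**Figure D2:**
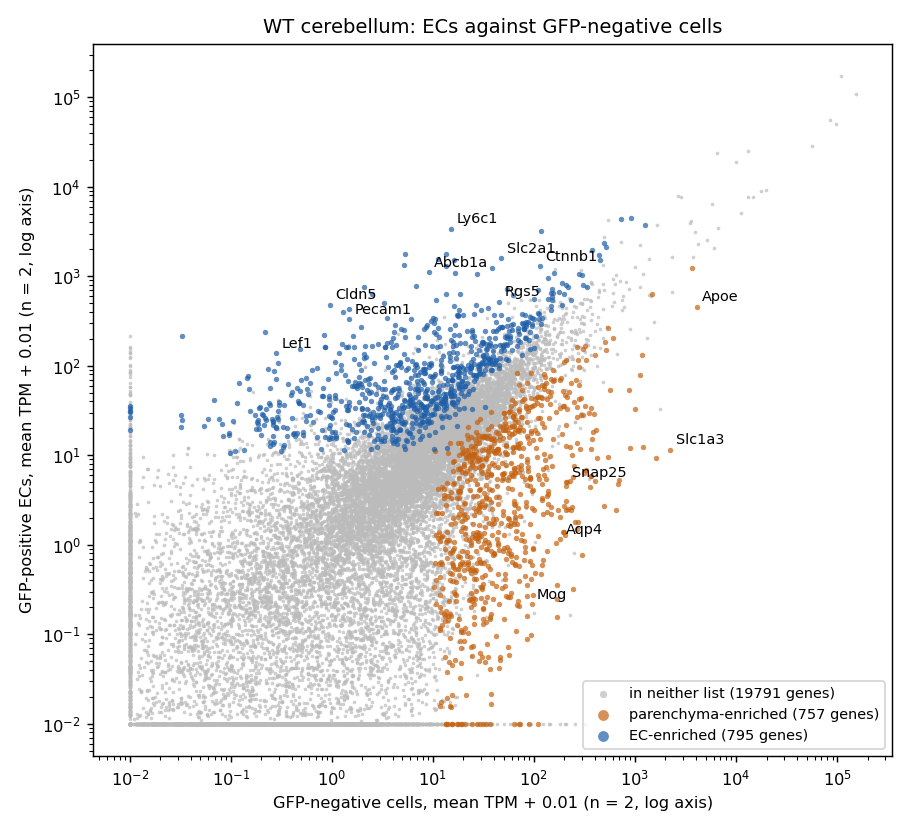
Mean level over 2 libraries of each of 21343 genes in GFP-negative cells (horizontal) and ECs (vertical), as TPM + 0.01 on log axes. The 795 EC-enriched genes (blue) and 757 parenchyma-enriched genes (orange) leave the diagonal on either side, and all other genes are gray.

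The EC identity genes were widely separated. Of 26, 25 rose, none fell, and their median log2 fold change was 7.23; all 25 calls held without each library in turn. Pecam1, an adhesion molecule of EC contacts, was at 1.42 and 1.5 TPM in GFP-negative cells and at 319.5 and 338 TPM in ECs (log2 fold change 7.30 ± 0.92 (SE), adjusted p = 3.7e-05). Cdh5, the VE-cadherin of adherens junctions, was at 0.671 and 2.2 against 160.1 and 165 TPM (log2 fold change 6.31 ± 0.88 (SE), adjusted p = 9.7e-05). The EC replicates lay close together for both genes, the GFP-negative replicates of Cdh5 were several-fold apart, and the fractions did not overlap; over all genes, 46.0% had non-overlapping TPM in this design of 2 against 2. Kdr, the main VEGF receptor, stood at 0.888 and 1.63 against 148 and 203 TPM (log2 fold change 6.72 ± 0.83), and Tek, the gene whose promoter drives the GFP, at 3.18 and 1.02 against 169.9 and 166 TPM (log2 fold change 7.53 ± 1.53). Tek checks the sort and is no independent finding.

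Among surface proteins of ECs, Ly6c1 was at 19.7 and 10.7 TPM in GFP-negative cells and 3322 and 3440.4 TPM in ECs (log2 fold change 7.51 ± 1.34, adjusted p = 0.001), Ly6a at 6.4 and 4.1 against 2023 and 1560.4 TPM, and Itm2a, a small membrane protein, at 12.3 and 14.6 against 2002 and 1516 TPM. Ly6c1 and Ly6a belong to a family with near-identical copies among which reads can be split. S1pr1, a sphingosine-1-phosphate receptor that ECs use widely, was the single list member that did not pass. It stood at 135 and 44.4 TPM in GFP-negative cells and 53.3 and 41.7 TPM in ECs (log2 fold change -1.09 ± 0.51, adjusted p = 0.21), while it rose in ECs of both pituitary lobes.

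The 12 EC-enriched protein-coding genes with the largest fold change and at least 50 TPM were Ccl21a, Pglyrp1, Akr1c14, Cldn5, Gimap1, Zfp366, BC028528, Icam2, Robo4, Adgrf5, Ly6a and C130074G19Rik. Pglyrp1, a peptidoglycan recognition protein of innate immunity, was at 0 and 0.416 TPM in GFP-negative cells and 176 and 299 TPM in ECs (log2 fold change 9.61 ± 2.45 (SE), adjusted p = 0.014). Akr1c14, a steroid-metabolizing reductase, was at 0 and 0.274 against 98.5 and 57 TPM, and Zfp366, a zinc finger corepressor, at 0.163 and 0.281 against 107 and 75.9 TPM (log2 fold change 8.25 ± 1.09 (SE), adjusted p = 6.1e-05). Robo4, a receptor of vessel stability, was at 0 and 0.514 against 55.9 and 119 TPM. Ccl21a, a chemokine, was at 0 and 0.0452 against 205 and 219.5 TPM. It has near-identical copies in the genome, so its count is uncertain. In ECs of stabilized cerebellum it was at 9.60 and 10.8 TPM. In ECs of both WT pituitary lobes and in WT cortex bound RNA it was at 0.

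By level, the leading EC-enriched genes were Tmsb4x, Eef1a1, Ly6c1, Bsg, Sparc, Tpt1, Selenop, Ly6a, Itm2a, Slc2a1, Esam and Slc3a2. Bsg (basigin), the chaperone partner of monocarboxylate transporters, rose from 116 and 121 to 2873 and 3597 TPM (log2 fold change 4.49 ± 0.41 (SE), adjusted p = 2.0e-06). Its log2 fold changes in the anterior and posterior pituitary were -1.81 and -0.72. Selenop, a selenium carrier, was at 424 and 323 against 2035 and 1887 TPM. Eef1a1 (translation elongation) and Tmsb4x (actin binding) are general cell components that were higher in ECs, at log2 fold changes of 1.25 ± 0.34 and 2.07 ± 0.49; the Eef1a1 call was lost without GFP-negative replicate 1.

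Barrier transport genes were higher in ECs as a group. Of 29, 23 rose and none fell (median log2 fold change 4.74; 22 to 25 without 1 library). Slc2a1, the glucose transporter GLUT1, was at 58.8 and 35.7 TPM in GFP-negative cells and 1579 and 1625 TPM in ECs (log2 fold change 4.74 ± 0.42 (SE), adjusted p = 1.8e-06). Both EC replicates stood far above both GFP-negative replicates. Mfsd2a, a carrier of lysophospholipids that also limits transcytosis, was at 7.79 and 14.8 against 164 and 364 TPM (log2 fold change 4.13 ± 0.80, adjusted p = 0.0019).

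Amino acid carriers did not all move. Slc7a5, the light chain of the large neutral amino acid carrier, was at 10.9 and 8.36 against 254 and 375 TPM (log2 fold change 4.44 ± 1.0). Its heavy chain partner Slc3a2 was at 688 and 205 against 1906 and 1123 TPM (log2 fold change 1.43 ± 0.36), a call lost without GFP-negative replicate 2. Slc7a1 (cationic amino acids), Slc38a5 (glutamine) and Slc6a6 (taurine) rose by 5.63, 7.05 and 5.14 on the log2 scale. The fractions of these carriers did not overlap. Slc7a8 and Slc1a4 were at 0.925 and 1.32 and at 0.128 and 1.5 TPM in ECs and did not pass, with adjusted p of 0.54 and 0.28.

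Carriers of organic anions and thyroid hormone held some of the highest EC levels. Slco1c1, which moves thyroxine, was at 6.18 and 26.3 TPM in GFP-negative cells and 1679.9 and 1345 TPM in ECs (log2 fold change 5.94 ± 1.12 (SE), adjusted p = 0.0016). Slco1a4 was at 1.68 and 3.29 against 557 and 698 TPM (log2 fold change 7.57 ± 0.88 (SE), adjusted p = 1.6e-05), and Slc22a8 at 1.33 and 1.94 against 158 and 168 TPM. Slc16a1, a lactate and ketone body carrier, rose by 4.23 ± 0.59 on the log2 scale and Slc19a3, a thiamine carrier, by 8.40 ± 1.97. Slco2b1 and Slc16a4 did not pass, at adjusted p of 0.06 and 0.07.

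Metal carriers included Slc40a1, the iron exporter ferroportin, at 0.658 and 6.4 against 367 and 321 TPM (log2 fold change 5.92 ± 1.14), and Slc39a10, a zinc importer, at 8.32 and 13 against 597 and 497 TPM (log2 fold change 4.77 ± 0.50 (SE), adjusted p = 5.7e-06). Tfrc, the transferrin receptor, was at 16.8 and 12.1 against 148 and 127 TPM (log2 fold change 2.66 ± 0.61). All 4 efflux pumps on the list rose. Abcb1a, the P-glycoprotein, was at 6.11 and 12 against 1299 and 924 TPM (log2 fold change 7.36 ± 0.92 (SE), adjusted p = 3.5e-05), and Abcg2 at 12.9 and 7.67 against 349 and 248 TPM. Abcc6 stayed under 10 TPM in all 4 libraries, and its call was lost without GFP-negative replicate 2.

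Of 19 tight and adherens junction genes, 13 rose and none fell (median log2 fold change 3.06; 12 or 13 without 1 library). Cldn5, the main claudin of the barrier, was at 0 and 1.88 TPM in GFP-negative cells and 453 and 511 TPM in ECs (log2 fold change 8.46 ± 2.14 (SE), adjusted p = 0.013). Ocln (occludin) was at 35.8 and 15.5 against 206 and 223 TPM, and Lsr, the angulin of tricellular junctions, at 0.0317 and 1.21 against 109 and 68.4 TPM. Among scaffolds, Tjp1 (ZO-1) and Cgnl1 (paracingulin) rose by 2.54 and 3.83 on the log2 scale, whereas Cgn was near 0 in ECs. Ctnnb1, which encodes beta-catenin, was at 89.3 and 139 against 928 and 1664 TPM (log2 fold change 3.06 ± 0.38 (SE), adjusted p = 3.0e-05). Jam3 did not pass, at 15.8 and 26.6 against 5.83 and 4.9 TPM (adjusted p = 0.11).

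Wnt pathway genes called in each direction held different roles. Of 27 genes, 8 rose and 3 fell, against 4.46% and 6.89% of all genes. The higher count was 3 with a gene length offset and 13 with no filter on low counts or with only these 4 libraries fitted. The higher genes were receptors, co-receptors, a transcription factor and feedback targets on the EC side, and the lower genes were 1 of the 4 ligands and 2 of the 5 secreted inhibitors. Lef1, the transcription factor that partners with beta-catenin, was at 0.131 and 0.414 TPM in GFP-negative cells and 156 and 119.7 TPM in ECs (log2 fold change 7.83 ± 1.55 (SE), adjusted p = 0.0023). Apcdd1, an inhibitor induced by the pathway, was at 3.72 and 3.01 against 166 and 158 TPM, and Fzd6, a Frizzled receptor, at 3.11 and 1.55 against 69.8 and 56.2 TPM. These 3 genes kept their calls without each library. Fzd4, Lrp5, Nkd1, Adgra2 and Reck, the last 2 being the Wnt7 co-receptors Gpr124 and Reck, rose by 2.82, 1.64, 2.95, 4.63 and 3.67 on the log2 scale, and each lost its call without at least GFP-negative replicate 1, where 3 genes of the list remained higher.

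On the parenchymal side, Wnt7b was at 5.44 and 1.1 TPM in GFP-negative cells and 0.00535 and 0 TPM in ECs (adjusted p = 0.04), Wif1, a secreted Wnt inhibitor, at 17.4 and 13.3 TPM against 0 in both EC libraries (adjusted p = 0.025), and Dkk3, of the Dickkopf family, at 39.3 and 11.9 against 0.124 and 0.679 TPM (adjusted p = 0.011). The Dkk3 call was lost without EC replicate 1, the Wnt7b call without either EC library or GFP-negative replicate 1, and the Wif1 call without either EC library or GFP-negative replicate 2. The ligands Wnt7a (1.85 and 3.74 against 0 and 0.0583 TPM) and Ndp (15.9 and 4.41 against 0 and 0.399 TPM) had the same order of levels but did not pass, at adjusted p of 0.23 and 0.33. The fourth ligand, Wnt5a, had the opposite order, at 3.55 and 2.27 against 10.2 and 7.52 TPM, and did not pass (log2 fold change 1.38 ± 0.69, adjusted p = 0.25). Axin2, the feedback target most used as a readout of the pathway, was at 19.6 and 2.89 against 30.2 and 41.5 TPM and did not pass (log2 fold change 1.94 ± 0.92, adjusted p = 0.22). Both EC values lay above both GFP-negative values, but GFP-negative replicate 1 came near them.

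Of 42 signaling ligands and receptors, 22 rose and 2 fell, against 4.46% and 6.89% of all genes (median log2 fold change 2.67; 19 to 23 rose without 1 library). All 5 VEGF receptors and co-receptors rose, Nrp2 with a call that was lost without either GFP-negative library. Flt1 was at 1.14 and 2.97 TPM in GFP-negative cells and 1003 and 507 TPM in ECs (log2 fold change 7.63 ± 1.15 (SE), adjusted p = 2.1e-04). Vegfa, the ligand of Kdr and Flt1, was at 51.6 and 21.7 against 1.03 and 0.0114 TPM (log2 fold change -5.70 ± 1.23 (SE), adjusted p = 0.0043), with both EC values far below both GFP-negative values; the other two VEGF ligands on the list did not pass. In the BMP branch, Eng and Acvrl1, which form the BMP9 receptor complex of ECs, rose by 6.47 and 6.10 on the log2 scale, and the ligand Bmp6 fell by 4.10, a call lost without EC replicate 1. Pdgfb, which ECs release to recruit pericytes, was at 3.19 and 1.64 against 60.4 and 41.1 TPM. Cxcl12, a chemokine, was at 14.6 and 21.6 against 489.7 and 346 TPM (log2 fold change 5.68 ± 0.90 (SE), adjusted p = 3.6e-04). Of the Notch pathway, Dll4, Jag1, Jag2, Notch1 and Notch4 rose, the calls of Jag1 and Notch1 being lost without GFP-negative replicate 2 or EC replicate 2, while the targets Hey1 (12.8 and 6.61 against 27.2 and 29.8 TPM) and Hey2 (3.19 and 1.85 against 4.38 and 3.24 TPM) did not pass.

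**Figure D3:**
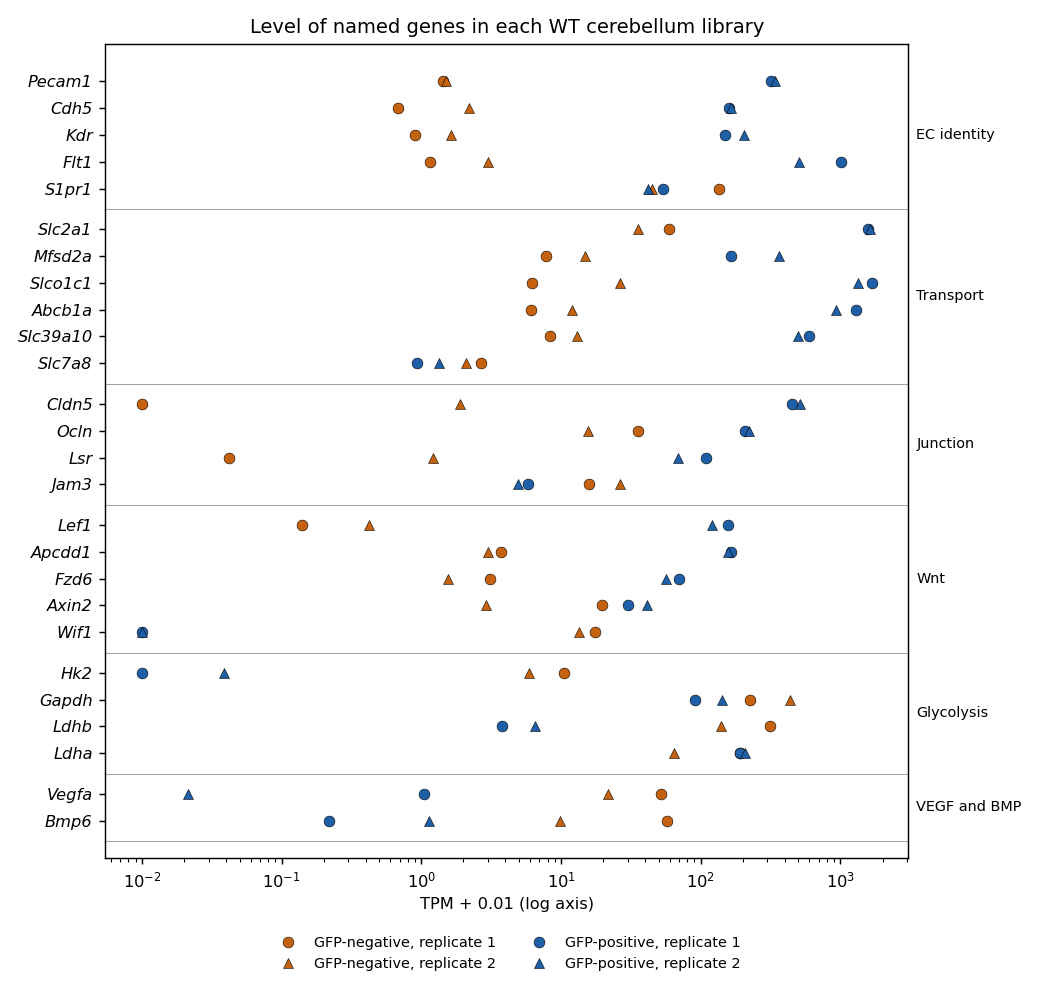
Level (TPM + 0.01, log axis) of 26 named genes in each of the 4 libraries; orange is GFP-negative and blue is EC, circles are replicate 1 and triangles replicate 2. EC identity, transport and junction genes lie to the right in ECs apart from S1pr1, Slc7a8 and Jam3, and Wif1, Hk2, Gapdh, Ldhb, Vegfa and Bmp6 lie to the right in GFP-negative cells.

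Of 30 EC transcription factors, 22 rose and none fell (median log2 fold change 4.40; 21 to 23 without 1 library). All 3 SOX genes rose. Sox17, which acts in arterial and barrier ECs, was at 0 and 0.37 TPM in GFP-negative cells and 42.2 and 27.4 TPM in ECs (log2 fold change 8.11 ± 1.50 (SE), adjusted p = 0.002), and Sox7 at 0.0060 and 0.0832 against 29.4 and 13.2 TPM. Among ETS factors, which many EC promoters and enhancers bind, Ets1 was at 2.07 and 2.86 against 166 and 166 TPM, Fli1 at 3.13 and 2.83 against 28.6 and 46.3 TPM and Erg at 0 and 0.18 against 8.94 and 13.2 TPM; the Erg call was lost without GFP-negative replicate 1. Epas1 (HIF-2alpha) held the highest EC level on the list, at 11.1 and 9.84 against 369 and 301 TPM (log2 fold change 4.72 ± 0.52 (SE), adjusted p = 1.1e-05). Foxq1, a barrier-associated forkhead factor, rose by 8.13 ± 1.76 on the log2 scale.

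Basement membrane and adhesion genes rose in 14 of 20 cases and 1 fell, against 4.46% and 6.89% of all genes. Col4a1, a chain of collagen IV, was at 19.6 and 17.8 against 498 and 782 TPM (log2 fold change 4.60 ± 0.69 (SE), adjusted p = 2.0e-04), and Fn1 (fibronectin) at 8.86 and 24 against 1218 and 962 TPM. The related matrix proteins Sparc and Sparcl1 went opposite ways: Sparc was at 633 and 363 TPM in GFP-negative cells and 2147 and 2567 TPM in ECs (log2 fold change 1.83 ± 0.32), and Sparcl1 at 5586 and 1681 and 1579.8 and 917 TPM (log2 fold change -1.84 ± 0.42). The Sparcl1 call was lost without GFP-negative replicate 1 and without EC replicate 2.

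Of 11 caveola, fenestra and lipid uptake genes, 7 rose and 1 fell, against 4.46% and 6.89% of all genes. All 6 caveola genes rose, among them Cav1 at 16.6 and 3.03 against 154 and 181 TPM (log2 fold change 5.01 ± 0.57 (SE), adjusted p = 1.3e-05). The genes of permeable vessels were low. Plvap, the diaphragm protein of fenestrae, was at 0.204 and 1.51 TPM in GFP-negative cells and 0 and 10.7 TPM in ECs (adjusted p = 0.44); without EC replicate 2 its log2 fold change turned to -8.97. Gpihbp1, which carries lipoprotein lipase, passed at 0 and 0.0119 against 0 and 1.21 TPM on EC replicate 2 alone; its log2 fold change was -2.17 without that library, and its call was also lost without GFP-negative replicate 1. Fabp5, a fatty acid binding protein, fell, at 33.4 and 20.6 against 0 and 1.24 TPM.

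Interferon-induced and MHC class I genes were higher in ECs in 12 of 18 cases, and none fell (median log2 fold change 2.52; 11 without each library). B2m, the light chain of MHC class I, was at 154 and 67.6 TPM in GFP-negative cells and 875 and 546 TPM in ECs (log2 fold change 2.40 ± 0.45), and H2-D1 at 137 and 62.8 against 696 and 427 TPM. Ifitm3, an antiviral membrane protein, was at 17.5 and 14.6 against 514 and 414 TPM (log2 fold change 4.48 ± 0.45 (SE), adjusted p = 4.3e-06), and Ly6e at 16.5 and 23.5 against 302 and 444 TPM. The H2 genes have close paralogs, so their counts are uncertain.

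Genes that mark vessel segments and leukocyte adhesion were mostly low, and 4 of 14 rose while 1 fell (3 to 5 rose without 1 library), against 4.46% and 6.89% of all genes. Slc38a5, the glutamine carrier given above, which also marks veins, was 1 of the 4. Bmx (arterial) was at 0.0138 and 0.0413 against 16.3 and 7.8 TPM and Sema3g (arterial) at 0.34 and 0.162 against 22.9 and 20.2 TPM. Icam1 was at 0.672 and 1.17 against 25.8 and 14.7 TPM, a call lost without GFP-negative replicate 1. Vcam1 was at 24 and 9.11 against 41.7 and 62.8 TPM and did not pass. Selplg, a selectin ligand of leukocytes, was the gene that fell, at 13.1 and 16.9 against 0 and 0.0108 TPM, with a call that was lost without EC replicate 1. The selectins Sele and Selp stayed under 6 TPM in each library.

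Of 17 glycolysis genes, 9 fell, 8 did not pass and none rose, while the glucose transporters divided, Slc2a1 rising and Slc2a3 falling. In all, 10 of the 19 glucose metabolism genes fell (median log2 fold change -1.63; 5 without EC replicate 1, 6 without GFP-negative replicate 2 and 11 at most; 6 with a gene length offset). Hk2, a hexokinase, was at 10.4 and 5.86 TPM in GFP-negative cells and 0 and 0.0284 TPM in ECs (adjusted p = 4.2e-04). Gapdh was at 224 and 435 against 91.2 and 141 TPM (log2 fold change -1.69 ± 0.49), Eno2, the neuronal enolase, at 29.4 and 37.6 against 7.52 and 1.65 TPM, and Slc2a3, the neuronal glucose transporter, at 41.5 and 12.4 against 0.397 and 0.42 TPM. Aldoc, the astrocyte aldolase, fell by the largest called amount after Hk2, at 1330.5 and 446 against 13.6 and 10.5 TPM (log2 fold change -6.68 ± 1.02 (SE), adjusted p = 2.3e-04). The lactate dehydrogenase subunits differed. Ldhb was at 316 and 139 against 3.75 and 6.53 TPM (log2 fold change -5.62 ± 1.08 (SE), adjusted p = 0.0018), and Ldha at 191 and 64.1 against 191 and 208 TPM (log2 fold change 0.44 ± 0.37, adjusted p = 0.54). Hk1, Gpi1, Pkm and Eno1 did not pass either. The calls for Gapdh, Aldoa, Pgk1, Pgam1 and Slc2a3 were each lost without EC replicate 1. All of these but the Pgk1 call were also lost without GFP-negative replicate 2.

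The parenchyma-enriched genes of highest level included Apoe, Sparcl1, Slc1a3, Cst3, Ptgds, Sept4, Gja1, Atp1b2, Aldoc, Dbi and Scg3. Slc1a3, the glutamate transporter GLAST of Bergmann glia, was at 3686 and 764 TPM in GFP-negative cells and 19.4 and 3.61 TPM in ECs (log2 fold change -7.68 ± 1.11 (SE), adjusted p = 1.4e-04). Apoe, a lipid carrier made by astrocytes, was at 6337 and 1794 against 636 and 275 TPM (log2 fold change -3.37 ± 0.62). For both genes the GFP-negative replicates were several-fold apart, with replicate 1 the higher, whereas Ptgds stood at 1114 and 1271 TPM in them. The Cst3 call was lost without each library in turn. By fold change, Syt10 and Btbd17 led, both at 0 in the EC libraries and at 109 and 19.2 and at 119 and 28.2 TPM in GFP-negative cells; against a floor of 3 counts over the EC libraries, they were at least 2454-fold and 2174-fold lower (adjusted p = 6.6e-04 and 0.0022). They were followed by Ugt8a, Omg, Kcnn2, Mlc1, Mag, Tceal5, Mog, Hepacam, Dao and Cxcl14, among which Ugt8a, Omg, Mag and Mog belong to myelin and Mlc1 and Hepacam to astrocyte endfeet.

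By cell type, 10 of 13 astrocyte and Bergmann glia markers, 10 of 12 oligodendrocyte lineage markers and 8 of 12 microglia markers fell. So did 9 of 15 granule neuron markers and 6 of 12 Purkinje cell and interneuron markers. Of fibroblast and meningeal markers 5 of 8 fell, and of macrophage and leukocyte markers 2 of 10. None of these 82 genes rose, and over all genes 6.89% fell and 4.46% rose. Of 8 choroid plexus and ependymal markers 1 fell and none rose. The astrocyte count was 10 without each library, whereas the granule neuron count was 5 without EC replicate 1, the oligodendrocyte count 7 and the fibroblast count 2 without the same library. The Purkinje count was 2 without GFP-negative replicate 2, the macrophage count was 0 without EC replicate 2 and 1 without EC replicate 1 or GFP-negative replicate 2, and the fibroblast count was 3 without EC replicate 2 or GFP-negative replicate 2. The microglia count was 6 to 9 without 1 library. Snap25, a synaptic vesicle fusion protein, was at 226 and 192 TPM in GFP-negative cells and 3.93 and 5.99 TPM in ECs (log2 fold change -5.59 ± 0.80 (SE), adjusted p = 1.2e-04). Gabra6, a receptor subunit particular to granule neurons, was at 51.3 and 15 against 0.103 and 1.66 TPM, and Aqp4, the water channel of astrocyte endfeet that wrap the vessels, at 253 and 111 against 1.36 and 0.934 TPM (log2 fold change -7.49 ± 1.20 (SE), adjusted p = 3.9e-04). Granule neurons are by far the most numerous cells of the cerebellum, and their markers summed in GFP-negative cells to 640.2 and 414 TPM for 15 genes.

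Mural cells, the pericytes and smooth muscle cells that touch the endothelium, were an exception. Of 12 mural markers 3 rose and none fell, against 4.46% and 6.89% of all genes. With no filter on low counts, or with only these 4 libraries fitted, 5 rose. Rgs5, a pericyte marker, was at 60.7 and 30.1 TPM in GFP-negative cells and 548 and 488 TPM in ECs (log2 fold change 3.42 ± 0.43 (SE), adjusted p = 3.7e-05). The potassium channel subunits Kcnj8 and Abcc9, which pair in pericytes, were at 2.13 and 0.752 against 14.2 and 14.6 TPM and at 2.27 and 0.872 against 18.9 and 20.8 TPM. Pdgfrb was at 5.98 and 3.05 against 19.5 and 13.3 TPM and did not pass (adjusted p = 0.15), and the smooth muscle genes Acta2 and Myh11 were not higher in ECs, at 26.1 and 10.1 and at 16.9 and 5.48 TPM. Summed over the list, mural markers stood at 369 and 161 TPM in GFP-negative cells and 1151 and 928 TPM in ECs. The part of mural cells in the EC values was not tested. In cortex RiboTag samples, 1 of the 12 mural markers was higher in bound RNA and none lower (median log2 fold change -0.37). The share over all genes there was 7.46% higher, and Rgs5 was not enriched (log2 fold change 0.00). In stabilized cerebellum 1 of the 12 rose and none fell, where 7.26% of all genes rose.

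Immediate early and heat shock genes rose in 4 of 15 cases and 1 fell, against 4.46% and 6.89% of all genes, with calls that depended on single libraries. The number that rose was 0 without EC replicate 1, 1 without GFP-negative replicate 2, 5 without GFP-negative replicate 1 and 9 without EC replicate 2. Hspa1b, an inducible chaperone, was at 13.5 and 4.84 TPM in GFP-negative cells and at 243 and 9.95 TPM in ECs, and its log2 fold change was -0.10 without EC replicate 1. Nr4a1 was at 187 and 8.62 TPM and Fos at 309 and 12.2 TPM in the EC replicates, and neither passed.

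The lists were then read in other libraries. In the cerebellum of mice with beta-catenin stabilized in ECs, sorted in the same way and sharing no library with the WT comparison, 1549 genes were higher and 2118 lower in GFP-positive cells (7.26% and 9.92%; 1277 to 1594 and 1464 to 1863 without 1 library of that comparison). Of the 795 EC-enriched genes 667 (83.9%) were called higher there too, none lower, and 787 had the same sign. Of the 757 parenchyma-enriched genes 628 (83.0%) were called lower, none higher, and 750 had the same sign. The 667 genes were 43.1% of those called higher there. Lef1, Axin2 and Notum had log2 fold changes of 6.69 ± 1.48, 4.58 ± 1.04 and 13.76 ± 3.06 in those mice. Whether these values differ from those of WT mice was not tested.

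In cortex RiboTag samples, where ribosomes of ECs were pulled down from whole tissue without dissociation, 1361 of 18241 genes were higher in bound RNA and 763 lower (7.46% and 4.18%). Without 1 library the higher count was 1168 to 1979, and the lower count was 104 and 138 without input replicates 1 and 2, 155 without bound replicate 1 and 779 without bound replicate 2; each of these fits leaves 1 library in a group, whose spread is taken from the other groups. Of the EC-enriched genes of cerebellum 440 (55.3%) were called higher and none lower, and these were 32.5% of the genes called higher there that were also tested in cerebellum. Of the parenchyma-enriched genes 155 (20.5%) were called lower and 20 higher. All 26 EC identity genes and 22 of 30 EC transcription factors were higher in bound RNA. Of the 29 barrier transport genes 21 were higher, while Tfrc and Slc39a10, called in cerebellum, had log2 fold changes of -0.02 ± 0.39 and 0.21 ± 0.22. Microglia markers had opposite signs in the 2 assays. All 12 microglia markers were higher in bound RNA (median log2 fold change 4.42), whereas none was higher in sorted cerebellum ECs and Tmem119 was at 0. The 2 assays differ in tissue, allele and method, which cannot be told apart.

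The EC fractions of the anterior and posterior pituitary, whose vessels are permeable, were compared with those of cerebellum. In these tissues 1165 and 1510 genes were higher in GFP-positive cells (5.46% and 7.07%) and 1252 and 1591 lower (5.87% and 7.45%). Of the 795 EC-enriched genes of cerebellum, 388 (48.8%) were called higher in both lobes. The difference between enrichment in cerebellum and the mean of both lobes was tested in the same edgeR fit. It passed with a larger value in cerebellum for 320 genes and a smaller one for 602 (1.50% and 2.82%). The counts were 836 and 1273 with DESeq2 and 622 and 1094 with no filter on low counts. The larger count was 128 without cerebellum GFP-negative replicate 1, 184 without cerebellum EC replicate 1 and 503 without posterior pituitary EC replicate 1, and the smaller count 334 without cerebellum EC replicate 1 and 932 without posterior pituitary GFP-negative replicate 1. A difference of enrichments moves with the level in the GFP-negative cells as well as in the ECs. Levels of the pituitary ECs are therefore given below for Mfsd2a, Slc2a1, Esam, Cldn5, Plvap and Cav1.

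Barrier transport stood out on one side only: 12 of 29 genes had a larger enrichment in cerebellum and none a smaller one. For Mfsd2a the difference was 11.42 ± 1.25 on the log2 scale (adjusted p = 2.2e-05), and its level was 164 and 364 TPM in cerebellum ECs, 0 and 0.0176 TPM in anterior pituitary ECs and 0 and 0.0335 TPM in posterior pituitary ECs. For Slc2a1 the difference was 6.14 ± 0.49 (adjusted p = 5.4e-07), with 10.8 and 16.7 and 21.1 and 24.8 TPM in the EC replicates of the lobes. Slco1c1, Lrp8, Slc7a1, Slc40a1, Slc7a8, Tfrc, Slc39a10, Slc6a6 and Slc16a1 were among the others, with differences from 8.92 to 2.88. The differences of Slc7a8, Slc16a1 and Slc40a1 did not pass without at least 1 library. Slc7a8 and Lrp8 were not called in cerebellum itself. Slc7a8 was depleted from pituitary ECs (log2 fold changes -4.70 and -7.79). It was also lower in cerebellum ECs, without passing. Its difference is thus a weaker depletion and no enrichment. The pumps Abcb1a and Abcg2 had differences of 0.43 ± 0.91 and 0.05 ± 0.80 and were enriched in ECs of all 3 tissues.

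Junction genes went both ways. Lsr (13.54 ± 2.10), Marveld2, a second tricellular junction protein (6.29 ± 1.61), and Ocln (6.16 ± 0.92) were more enriched in cerebellum ECs. Marveld2 was not called in cerebellum itself. Jam3 (-5.87 ± 1.18), Esam (-2.92 ± 0.64) and Jup (-2.61 ± 0.43) were more enriched in the mean of the pituitary lobes. For Esam this held in the posterior lobe only (log2 fold changes 5.49 in the anterior, 13.04 in the posterior lobe and 6.34 in cerebellum). Its EC levels overlapped, at 1478 and 1632 TPM in cerebellum, 973 and 2225 TPM in the anterior and 1746 and 695 TPM in the posterior lobe. For Cldn5 the difference was 1.82 ± 2.29 and did not pass (adjusted p = 0.99), although its EC levels were 453 and 511 TPM in cerebellum, 23.4 and 21.9 TPM in the anterior and 37.2 and 13.2 TPM in the posterior lobe. In the Wnt list, Tnfrsf19 (12.25 ± 2.20), Wnt5a (8.92 ± 1.14), Axin2 (5.12 ± 1.18) and Fzd6 (4.24 ± 1.0) were larger in cerebellum and Tcf7l1 (-4.06 ± 1.0) in the pituitary. Among these, Fzd6 alone was called in cerebellum itself. Of the genes of this paragraph with a difference that passed, Marveld2, Tnfrsf19 and Tcf7l1 lost the call without at least 1 library.

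Caveola and fenestra genes were on the other side: 6 of 11 had a smaller enrichment in cerebellum and none a larger one. Plvap had a difference of -9.32 ± 2.55 (adjusted p = 0.043), with 0 and 10.7 TPM in the EC replicates of cerebellum, 845 and 1028 TPM in the anterior and 1159.7 and 1112 TPM in the posterior lobe. Cav1 differed by -6.24 ± 0.73, with 154 and 181 TPM in cerebellum ECs against 68.4 and 24.1 and 360.1 and 242 TPM, and Cavin2, Ehd4, Ehd2 and Fabp5 completed the group. The Plvap call was lost without cerebellum GFP-negative replicate 2 and the Ehd2 call without cerebellum EC replicate 1. EC identity gave 4 smaller and none larger, S1pr1 with the widest gap (-9.07 ± 0.76).

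**Figure D4:**
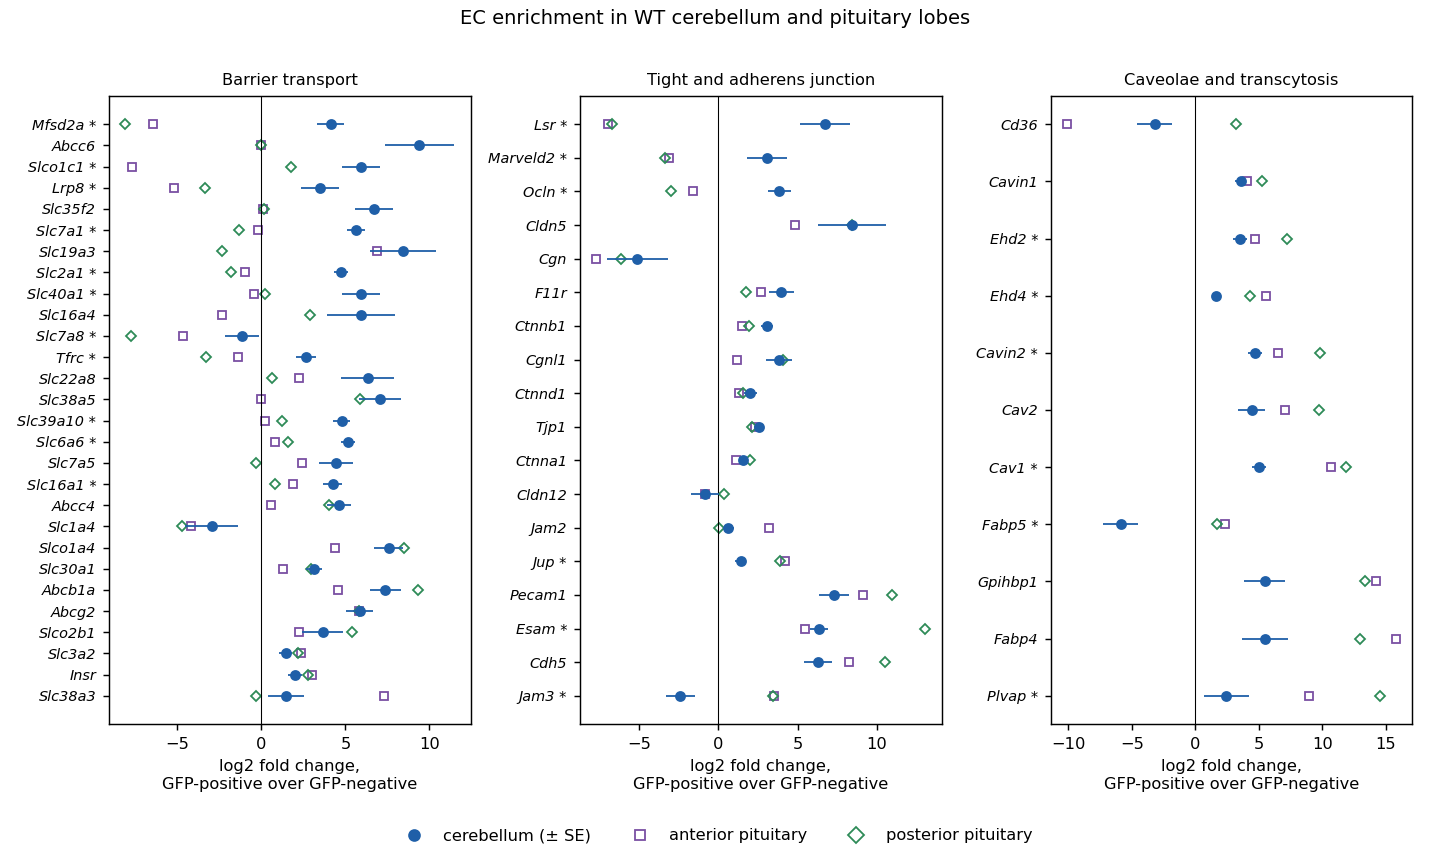
Log2 fold change of GFP-positive over GFP-negative cells for genes of 3 lists in WT cerebellum (filled circles with SE), anterior pituitary (squares) and posterior pituitary (diamonds), ordered by the difference; an asterisk marks genes whose difference passed. Mfsd2a, Slco1c1 and Lsr are enriched in cerebellum and not in the anterior lobe, and Cav1 and Plvap are more enriched in both lobes.

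Accessible chromatin was measured by ATAC-seq in WT ECs of each tissue, with 2 libraries each, but not in GFP-negative cells. A gene was scored when both replicates had a peak within 1000 bases of the start of its most abundant transcript. That start can lie inside the gene. Esam, which starts at chr9:37528078, was scored at 37534638, and Robo4, which starts at chr9:37401897, at 37412926. Neither had a peak there in any WT EC library. A missing peak therefore does not show that all promoters of a gene were closed. In cerebellum ECs, 68.8% of the 795 EC-enriched genes (547), 35.0% of the 757 parenchyma-enriched genes (265) and 44.1% of all 21343 genes tested had such a promoter peak. Of the 5896 genes at 10 TPM or more in either fraction and in neither list, 61.7% had one. Thus the EC-enriched genes lay a few points above other genes expressed in either fraction, and the parenchyma-enriched genes below all genes. The other expressed genes were not matched to the EC-enriched genes for level in ECs. These shares are descriptions with no test.

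Among lists, EC transcription factors had a promoter peak in 24 of 30 cases, barrier transport genes in 22 of 29, EC identity genes in 18 of 26 and junction genes in 12 of 19. Astrocyte markers had one in 3 of 13 cases, granule neuron markers in 3 of 15, oligodendrocyte markers in 1 of 12 and Purkinje and interneuron markers in none of 12. Mural cell markers, of which 3 were higher in ECs by RNA, also had one in none of 12 cases. Barrier transport promoters had a peak in 22 of 29 cases in cerebellum and 14 of 29 in each pituitary lobe, while over all genes the shares were 44.1%, 51.5% and 44.3%. For 7 genes (Slco1c1, Slco1a4, Slco2b1, Slc22a8, Slc16a4, Slc19a3 and Slc35f2) both cerebellum replicates had a peak and none of the 4 pituitary libraries did. Slc2a1 and Tfrc had peaks in all 3 tissues. Plvap had peaks in both lobes and none in cerebellum. Peak numbers depend on library depth, whose part in these counts was not tested.

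**Figure D5:**
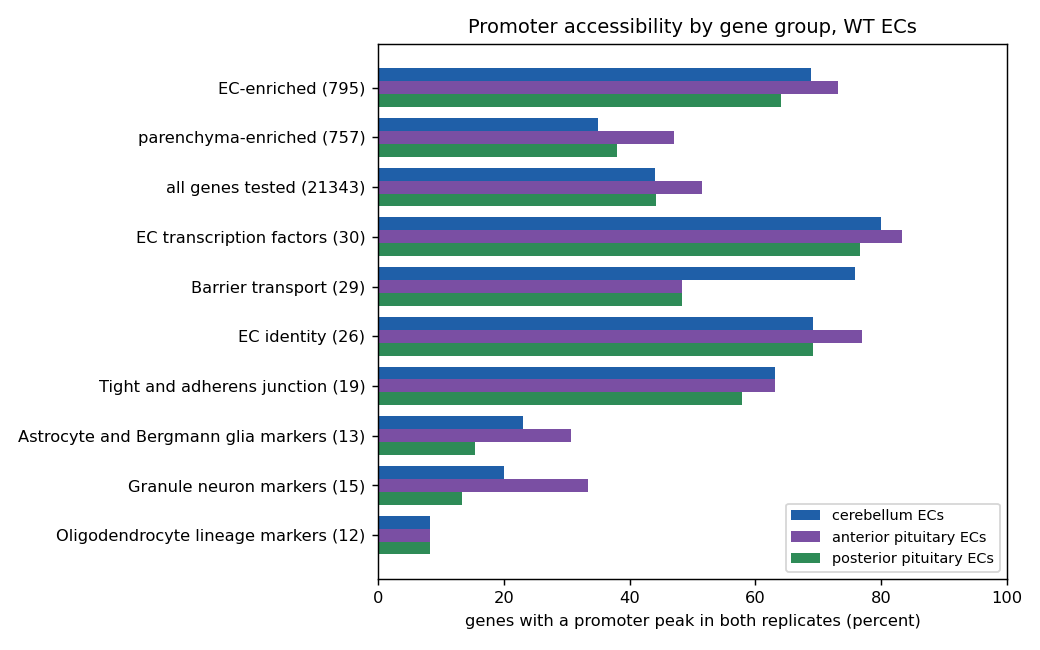
Percent of genes in each group with an ATAC-seq promoter peak in both replicates, for WT ECs of cerebellum, anterior and posterior pituitary; the number of genes is in parentheses. EC-enriched genes reach 68.8% in cerebellum and parenchyma-enriched genes 35.0%, and barrier transport genes stand at 75.9% in cerebellum and 48.3% in each lobe.

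Promoters of 4 barrier genes are shown because they cover the open patterns seen: Cldn5 (tight junction) and Slc2a1 (open in all 3 tissues), Mfsd2a (1 of the 4 pituitary libraries had a peak) and Slco1c1 (cerebellum only). Each is the 250 bases before the gene start in RefSeq (GRCm38.p6), 5′ to 3′ on the gene's strand. No base is capitalized because neither of the 2 ETS forms searched for, CAGGAAG and CCGGAAG, occurred. The shorter core GGAA, which both forms hold, was not marked and does occur, for example in Slco1c1. Cldn5 is at chr16:18776597-18776846, plus strand, Slc2a1 at chr4:119108495-119108744, plus strand, Mfsd2a at chr4:122961189-122961438, minus strand and Slco1c1 at chr6:141524104-141524353, plus strand. The peaks there had fold enrichments of 11.5 and 9.97 for Cldn5, 10.4 and 8.99 for Slc2a1, 8.53 and 7.47 for Mfsd2a and 10.1 and 11 for Slco1c1 in the 2 cerebellum replicates.
Cldn5: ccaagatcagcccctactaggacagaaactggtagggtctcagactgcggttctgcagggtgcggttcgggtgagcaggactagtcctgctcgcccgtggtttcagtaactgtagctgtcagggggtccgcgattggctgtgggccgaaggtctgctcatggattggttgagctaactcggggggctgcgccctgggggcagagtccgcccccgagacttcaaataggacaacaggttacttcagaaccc
Slc2a1: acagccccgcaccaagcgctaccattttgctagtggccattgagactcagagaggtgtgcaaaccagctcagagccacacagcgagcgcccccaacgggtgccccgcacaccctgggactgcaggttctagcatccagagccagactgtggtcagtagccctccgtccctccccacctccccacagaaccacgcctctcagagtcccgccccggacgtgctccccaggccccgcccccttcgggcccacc
Mfsd2a: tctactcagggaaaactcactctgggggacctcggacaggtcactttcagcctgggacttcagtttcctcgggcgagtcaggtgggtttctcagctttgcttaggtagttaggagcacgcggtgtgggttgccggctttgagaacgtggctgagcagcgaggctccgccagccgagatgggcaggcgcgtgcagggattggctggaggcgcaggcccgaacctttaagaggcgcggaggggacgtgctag
Slco1c1: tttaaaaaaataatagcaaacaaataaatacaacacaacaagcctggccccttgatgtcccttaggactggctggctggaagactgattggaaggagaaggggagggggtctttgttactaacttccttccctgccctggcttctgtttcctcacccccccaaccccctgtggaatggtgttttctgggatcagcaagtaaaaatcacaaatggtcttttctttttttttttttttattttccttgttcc

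Promoters of 3 EC identity genes that have both a peak and an ETS match, Cd34, Rasip1 and Emcn, are shown with the match in capitals; Cd34 and Emcn encode surface sialomucins and Rasip1 a regulator of vessel lumen formation. In each the match was CAGGAAG on the opposite strand, and so reads CTTCCTG, starting 142, 91 and 174 bases before the gene start. Cd34 is at chr1:194938571-194938820, plus strand, Rasip1 at chr7:45627287-45627536, plus strand and Emcn at chr3:137340828-137341077, plus strand, with fold enrichments of 9.44 and 11.1, 5.2 and 4.97, and 5.99 and 3.14.
Cd34: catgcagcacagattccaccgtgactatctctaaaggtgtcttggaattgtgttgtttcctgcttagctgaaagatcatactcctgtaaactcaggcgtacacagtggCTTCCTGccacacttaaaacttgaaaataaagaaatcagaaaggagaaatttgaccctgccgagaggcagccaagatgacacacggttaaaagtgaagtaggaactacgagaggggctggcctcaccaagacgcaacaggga
Rasip1: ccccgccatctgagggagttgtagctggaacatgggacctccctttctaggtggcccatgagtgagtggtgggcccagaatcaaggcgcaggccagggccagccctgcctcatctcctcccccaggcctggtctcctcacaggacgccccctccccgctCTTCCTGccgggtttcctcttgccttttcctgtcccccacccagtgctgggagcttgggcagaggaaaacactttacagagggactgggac
Emcn: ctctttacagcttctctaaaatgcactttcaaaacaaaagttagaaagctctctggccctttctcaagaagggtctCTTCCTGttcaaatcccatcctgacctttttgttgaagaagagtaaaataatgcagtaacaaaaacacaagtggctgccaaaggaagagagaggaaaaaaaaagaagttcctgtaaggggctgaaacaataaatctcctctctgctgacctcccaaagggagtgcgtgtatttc

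For contrast, the promoters of Slc1a3 and Mog are at chr15:8710808-8711057, minus strand, and chr17:37023399-37023648, minus strand. Both genes are parenchyma-enriched and had no promoter peak in any WT EC library. The RefSeq start of Slc1a3 lies 398 bases from the start of its most abundant transcript.
Slc1a3: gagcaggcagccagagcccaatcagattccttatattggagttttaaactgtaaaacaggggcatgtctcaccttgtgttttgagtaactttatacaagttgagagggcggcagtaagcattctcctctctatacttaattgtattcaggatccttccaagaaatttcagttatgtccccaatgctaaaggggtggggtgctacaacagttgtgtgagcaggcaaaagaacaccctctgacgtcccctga
Mog: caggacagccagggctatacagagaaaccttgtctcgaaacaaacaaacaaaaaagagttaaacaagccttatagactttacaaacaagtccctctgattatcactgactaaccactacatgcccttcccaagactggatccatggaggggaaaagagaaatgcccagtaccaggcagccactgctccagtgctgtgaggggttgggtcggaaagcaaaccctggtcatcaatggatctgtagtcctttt

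The ETS letters were then counted in all promoters with a RefSeq entry. CAGGAAG or CCGGAAG, on either strand, occurred in the 250 bases of 20.9% of the 613 EC-enriched genes with a RefSeq promoter, in 11.7% of 579 parenchyma-enriched genes and in 21.1% of 13719 genes tested. Of the 14 EC identity genes with a RefSeq promoter 4 (28.6%) held CAGGAAG, among them the 3 shown, which were picked for the match, and none held CCGGAAG. The 2 forms differed: CAGGAAG was in 13.5% of EC-enriched promoters against 10.3% of all, and CCGGAAG in 8.32% against 11.9%. The GATA letters AGATAA were in 4.24% against 6.52%, and the TCF/LEF letters CTTTGAT in 1.79% against 2.43%. The 2 ETS forms share the letters GGAAG and cannot occupy the same bases; all shares are descriptions, and a match is not a binding site.

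Beyond levels, the main transcript of some genes differed between ECs and parenchyma. Of 2998 genes at 10 TPM or more in all 4 libraries, 12 had a transcript that took at least 60% of the gene in both replicates of one fraction and at most 20% in both of the other. Cxcl12 was the one with a large difference in level as well. Transcript Cxcl12-202 made up 92.6 and 92.2% of the gene in GFP-negative cells and 6.54 and 6.39% in ECs, while Cxcl12-201 and Cxcl12-203 together took most of the EC total; Cxcl12-202 ends at chr6:117175069, Cxcl12-201 at chr6:117181367 and Cxcl12-203 at chr6:117181366 (GRCm38). For Fez2 and Nrep one annotated transcript replaced another: Fez2-202 made up 94.3 and 90.1% of the gene in GFP-negative cells and 0 and 18.7% in ECs, and Nrep-202 made up 0 and 9.87% of the gene in GFP-negative cells and 99.8 and 87% in ECs. For Creg1, a secreted glycoprotein, Creg1-202 made up 71.1 and 97.7% of the gene in GFP-negative cells and 10.6 and 15.4% in ECs. The other 8 were Rnf14, Ubap2, Armcx1, Impa1, Cnep1r1, Fmr1, Sft2d1 and Wdsub1, some of which rest on retained intron or short processed transcripts. These shares are Salmon estimates from single-end reads with no interval, and the count was between 55 and 178 genes without 1 library.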

How the data were processed

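RNA was measured in sorted GFP-positive and GFP-negative cells of WT cerebellum (2 libraries each), with the other sorted and RiboTag libraries for the fits. The deposited files hold expected counts and TPM per transcript, which the authors made with Salmon 0.10.2; the deposited peak lists hold the fold enrichment, a ratio, and the −log10 of the q-value that MACS2 gave for each ATAC-seq library. Transcript values were summed to genes with GRCm38 annotation, and counts were rounded. Genes were tested with edgeR 4.0.16 in R 4.3.3 (quasi-likelihood, TMM, filterByExpr, 1 coefficient per group over all 24 sorted libraries, or over the 16 RiboTag libraries) and Benjamini-Hochberg adjustment over all genes, and DESeq2 1.42.0 was an alternative. The study's own test could not be run here, so edgeR was used. A call needs an adjusted p under 0.05 and a 2-fold difference. On simulated counts fold sizes were recovered, but many changed genes missed the call, so a gene that did not pass may still differ. Totals ran from 28116011 to 35930249 estimated reads in the 4 libraries, of which at most 0.385% belonged to transcripts with no matched gene; these were left out. Intervals were not given for TPM, whose error here is the spread of 2 libraries. Peaks with a fold enrichment over 2 and −log10 q over 2 were kept, and a promoter peak lies within 1000 bases of the start of a gene's most abundant transcript. Promoter sequences came from RefSeq. Named genes were taken from the list members, the 12 genes of each fraction with the largest fold change at 50 TPM or more, the 12 of highest level, and the 12 largest isoform differences. Many list members enter the counts without being named. The members and lists were chosen with earlier results of these data known.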

Additional observations from a re-analysis of the deposited data

Results flagged for a closer look

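Values are given for 28 of the 29 genes of the barrier transport, junction, Wnt and caveola lists whose enrichment in GFP-positive over GFP-negative cells differed between WT cerebellum and the mean of both pituitary lobes by a test of the difference itself (edgeR quasi-likelihood test, adjusted p under 0.05). All differences are on the log2 scale, cerebellum minus pituitary, and each includes the levels of the GFP-negative cells, so that part of a value may lie in those cells. When each of the 12 libraries compared was left out in turn, 20 of the 28 kept the call in every fit, and 8 lost it in at least 1: Slc7a8 and Marveld2 (3 fits each), Tcf7l1 (2 fits), and Slc16a1, Slc40a1, Tnfrsf19, Ehd2 and Plvap (1 fit each). Among transport genes the difference was 11.42 for Mfsd2a, 8.92 for Slco1c1, 7.79 for Lrp8, 6.39 for Slc7a1, 6.14 for Slc2a1, 6.06 for Slc40a1, 5.07 for Slc7a8, 5.03 for Tfrc, 4.05 for Slc39a10, 3.96 for Slc6a6 and 2.88 for Slc16a1. Among junction genes it was 13.54 for Lsr, 6.29 for Marveld2, 6.16 for Ocln, -2.61 for Jup, -2.92 for Esam and -5.87 for Jam3. In the Wnt list it was 12.25 for Tnfrsf19, 8.92 for Wnt5a, 5.12 for Axin2, 4.24 for Fzd6 and -4.06 for Tcf7l1. Among caveola, fenestra and lipid uptake genes it was -2.45 for Ehd2, -3.29 for Ehd4, -3.47 for Cavin2, -6.24 for Cav1, -7.94 for Fabp5 and -9.32 for Plvap.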

How the results depend on the processing

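With DESeq2, 2562 genes were lower in cerebellum ECs, 3432 in stabilized cerebellum ECs, and the difference between cerebellum and pituitary passed for 836 higher and 1273 lower. A gene length offset gave 630 higher, 883 lower, 529 EC-enriched and 470 parenchyma-enriched genes. A minimum of 1 TPM gave 1337 parenchyma-enriched genes. With no filter on low counts the difference passed for 622 and 1094 genes, and 461 genes were lower in RiboTag bound RNA, against 503 with RLE normalization. Without 1 library, 622 to 875 genes were higher, 705 to 1275 lower, 550 to 692 EC-enriched and 451 to 776 parenchyma-enriched. The Wnt list had 3 higher genes with the length offset, 13 with no filter, 13 when only these 4 libraries were fitted, and 3 to 7 without 1 library. With no filter, 14 granule, 11 Purkinje, 8 fibroblast and 4 macrophage markers were lower, and 10 stress and 5 mural genes higher. With only these 4 libraries fitted, 7 vessel segment, 5 mural and 1 stress genes were higher and 4 macrophage markers lower. With the length offset, 6 glucose metabolism genes, 3 fibroblast markers and 0 macrophage markers were lower, and with DESeq2 4 macrophage markers. In fits without 1 library, chosen after seeing the data, the difference between cerebellum and pituitary passed for 128 to 503 higher and 334 to 932 lower genes, and 104 to 779 genes were lower in RiboTag bound RNA. Promoter peaks covered 64.3% of EC-enriched genes at thresholds over 4, 64.2% within 250 bases, and 72.2% when either replicate counted (40.2% of parenchyma-enriched genes). Isoform changes numbered 126 at 1 TPM, 5 at 70% against 10%, 43 at 50% against 30%, and 55 to 178 without 1 library, which asks for fewer libraries by construction. Signs turned, as log2 fold changes over fits without 1 library, for Gpihbp1 (-2.17 to 7.72) and Plvap (-8.97 to 4.81) without EC replicate 2, for Hbb-bs (-0.29 to 6.76) and Hspa1b (-0.10 to 4.69) without EC replicate 1, and for Itpr1 (-2.96 to 0.66) and Ttr (-19.59 to 9.53) without GFP-negative replicate 2. The causes were not tested.

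The labels do not say that a replicate number marks a shared mouse or day, and deviations of same-numbered WT cerebellum libraries correlated at 0.0906 over genes, so the samples were not treated as paired. Some sums did follow the number in both fractions: erythrocyte markers were higher in replicate 1 (20722 against 237 TPM in GFP-negative cells, 65218 against 7177 TPM in ECs), choroid plexus and ependymal markers in replicate 2 (16 against 3771 and 0.397 against 69.1 TPM), and reads of unmatched transcripts in replicate 1 (0.385% against 0.167%, and 0.347% against 0.171%). With a replicate block 922 genes were higher and 1429 lower; with a block within each tissue and genotype, 926 and 1262, with 2 stress genes higher; with a block in the 4 libraries alone, chosen after seeing the data, 1008 and 1459, with 13 Wnt, 6 mural and 1 stress genes higher and Plvap at -0.23.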

Other observations

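Among transcription factors not described above, Mecom, a zinc finger factor of ECs, was at 0.961 and 0.19 TPM in GFP-negative cells and 59.2 and 37.5 TPM in cerebellum ECs (log2 fold change 6.08 ± 0.65 (SE), adjusted p = 9.9e-06), and Gata2 at 0.205 and 0.146 against 31 and 18.9 TPM (log2 fold change 6.88 ± 1.06 (SE), adjusted p = 2.5e-04). Both were also more enriched in cerebellum than in the pituitary, by 4.39 ± 0.68 and 3.96 ± 1.06 on the log2 scale. Tbx3, a T-box factor, was at 0.314 and 0.191 against 13.1 and 13.8 TPM, and Foxl2, a forkhead factor, at 0 and 0.0497 against 4.28 and 7.06 TPM. Among interferon-induced genes, Irf7 was at 0 and 0.491 against 33.2 and 17.9 TPM and Ifit1 at 0.238 and 0.459 against 21.9 and 10.9 TPM, and the differences from the pituitary were 4.70 ± 1.28 and 5.09 ± 1.15. Among laminin chains, Lama4 rose by 3.80 ± 0.47 on the log2 scale, while Lama2, at 40.7 and 23.9 against 8.17 and 9.85 TPM, did not pass (adjusted p = 0.05).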
